A study of Mus musculus with 2 samples.

Results

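Open chromatin sites in first introns were examined in the hippocampus of 14-day-old mice. The labels call the source layer of hippocampus tissue and do not say which layer. Sites were mapped by DNase-seq, which sequences the ends that the nuclease DNase I leaves where DNA is accessible. The sites numbered 6173, or 7.70% of the 80205 autosomal peaks of replicate 1 that a replicate 2 peak overlapped. They were chosen by the peak calls themselves: a site was an autosomal peak of the longer deposited list of replicate 1, overlapped by at least 1 bp of a replicate 2 peak. Its midpoint lay in the first intron of the transcript with the longest coding sequence of a GENCODE M21 protein-coding gene, in no exon of any gene, and over 1 kb from every annotated transcript start. Of the 112664 autosomal replicate 1 peaks, 71.2% were overlapped in replicate 2. The replicate 2 list gave 6235 sites by the same rule.

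The data came from 2 libraries of 1 group, B6CASTF1/J females, first-generation hybrids of C57BL/6J and CAST/EiJ, with 3 females named on each label and no treatment named. The labels give the libraries 1 donor identifier but different biosample identifiers and do not say whether the animals were separate, so their spread may be technical. With 1 group of 2 libraries and sites chosen by peak calls, no test was made: every value is a description, shown in both libraries where possible. A shared peak lay within 500 bp of a start at 62.7% of all protein-coding genes, at 81.4% of the genes of the brain cell lists together and at 16.2% of those of the non-brain contrast lists together. The brain lists ranged from 3 of 12 ependymal and choroid plexus genes and 8 of 15 inhibitory neuron genes to 18 of 18 pan-neuronal and 16 of 16 astrocyte genes, and the contrast lists from 0 of 13 liver genes to 5 of 14 blood genes. In bulk tissue, a weaker site in every cell and a site open in fewer cells cannot be told apart.

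The first intron follows the first exon and so lies next to the promoter, and in many genes it is the longest intron. Introns can hold enhancers, which bind transcription factors and act on promoters from a distance, alternative promoters, and binding sites of CTCF, the zinc finger protein that anchors chromatin loops. In the brain, many genes for synaptic and adhesion proteins have very long introns. A peak shows accessibility, not which of these elements it is.

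The sequences of 6 sites are given to show what such elements look like: the strongest 3, then 1 site each from an adhesion gene with many sites, a progenitor gene and an astrocyte gene. Sequences were read from the GRCm38.p6 reference, plus strand, 5′ to 3′, not from the animals. Capitals mark matches, on either strand, to consensus letters: CCANNAGNNGGC for CTCF, TGGCNNNNNGCCA for the nuclear factor I (NFI) family, TGACGTCA for CREB, CAGCTG and CAGATG for basic helix-loop-helix factors (E-boxes), TAGGTCA for ROR, AACCACA for RUNX, GGGCGGGG for SP/KLF, GCGNGGGCG for EGR and ACATTCCA for TEAD. Signal is the authors' value per peak, replicate 1 first.
Il31ra, chr13:112578161-112578320, signal 63.0 and 21.3: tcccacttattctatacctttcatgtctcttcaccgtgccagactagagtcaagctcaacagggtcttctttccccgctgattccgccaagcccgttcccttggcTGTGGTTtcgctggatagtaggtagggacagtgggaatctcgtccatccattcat
Mxi1, chr19:53314261-53314440, signal 18.4 and 7.80: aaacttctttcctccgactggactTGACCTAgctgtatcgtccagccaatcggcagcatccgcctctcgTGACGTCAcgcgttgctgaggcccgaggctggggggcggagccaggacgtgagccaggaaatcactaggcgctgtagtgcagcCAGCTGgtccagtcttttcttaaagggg
Nuak1, chr10:84438141-84438320, signal 18.2 and 8.60: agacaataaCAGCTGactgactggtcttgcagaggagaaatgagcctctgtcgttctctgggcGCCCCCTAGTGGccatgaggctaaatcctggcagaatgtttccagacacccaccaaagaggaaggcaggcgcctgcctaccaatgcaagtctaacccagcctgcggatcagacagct
Ntm, chr9:29643361-29643540, signal 4.75 and 1.96: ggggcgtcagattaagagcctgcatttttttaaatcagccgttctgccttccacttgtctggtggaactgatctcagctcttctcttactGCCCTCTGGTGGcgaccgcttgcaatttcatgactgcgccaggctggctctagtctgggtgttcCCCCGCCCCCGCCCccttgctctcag
Igfbpl1, chr4:45820201-45820360, signal 3.59 and 1.51: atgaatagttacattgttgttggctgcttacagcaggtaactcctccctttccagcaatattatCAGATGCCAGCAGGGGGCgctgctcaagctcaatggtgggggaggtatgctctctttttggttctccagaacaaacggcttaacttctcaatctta
Slc4a4, chr5:88929821-88930060, signal 3.72 and 1.85: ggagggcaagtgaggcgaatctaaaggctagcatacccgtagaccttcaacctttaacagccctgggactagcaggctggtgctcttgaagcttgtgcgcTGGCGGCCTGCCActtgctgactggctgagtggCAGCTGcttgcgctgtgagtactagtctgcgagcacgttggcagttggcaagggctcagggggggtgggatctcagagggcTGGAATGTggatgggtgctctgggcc

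The CTCF letters lay in the Nuak1, Ntm and Igfbpl1 sites and the NFI letters in the Slc4a4 site. In the Ntm site 2 SP/KLF matches and 1 EGR match overlapped in a single run of capitals, and in the Igfbpl1 site the E-box and CTCF matches adjoined. The Mxi1 site held CREB, ROR and CAGCTG matches. A match is a description of letters, not evidence of binding.

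First introns held more open sites per Mb than later introns, but the excess was close to 0 when each gene was compared with itself. Lengths are eligible bases, those in no exon and over 1 kb from every start, where the rule allows a site. Assembly gaps and repeats were not taken out of these lengths. Over 11807 genes with eligible bases in both classes, first introns held 5889 sites in 186.657 Mb, or 31.5 per Mb, and later introns 13161 in 492.647 Mb, or 26.7 per Mb. The ratio was 1.18 (95% interval 1.15 to 1.22, counting error only, as for every interval here, and too narrow since sites of a gene are not independent). First introns held 30.9% of the sites and 27.5% of the bases. Within genes, the first-intron sites were 1.01 times the number expected had each gene's sites been spread over its introns by length. That measure is drawn towards 1, since a gene's total includes its first-intron sites. A Mantel-Haenszel rate ratio with genes as strata, added after the values were seen, was 1.03.

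Each library alone gave the same order. All replicate 1 peaks numbered 47.7 per Mb in first and 37.4 per Mb in later introns, a ratio of 1.27, and all replicate 2 peaks 71.6 and 63.6 per Mb, a ratio of 1.12. The mean ratio was 1.20 ± 0.106 (SD, n = 2), so the shared-site ratio lay within the spread of the libraries. The within-gene rate ratios were 1.07 and 1.05. Bases whose cut rate passed the authors' FDR of 0.05 were counted without the peak calls, but in the same libraries, so they are no independent measure. They made up 1.24% of first and 0.925% of later introns in replicate 1 and 1.87% and 1.68% in replicate 2. Their ratios were 1.34 and 1.11, and the within-gene observed over expected values 1.03 and 1.02. In genes selected on having at least 1 site in the first intron, the densities were 49.2 and 31.3 per Mb. That selection raises the first-intron density by construction.

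The gap between the pooled and the within-gene values went with a difference between genes. In a breakdown chosen after the values were seen, genes were grouped by the share of their eligible intron bases in the first intron. Where that share was under 10% (2880 genes), later introns held 24.1 sites per Mb and first introns 29.4, a ratio of 1.22. At 25 to 50% they held 29.3 and 30.5, a ratio of 1.04, and where it was over 75% (1153 genes) 36.0 and 32.9, a ratio of 0.916. Later-intron density thus differed more between these genes than first-intron density did. It was highest where the first-intron share was over 75%, from 211 later-intron sites. Of the 1253 first-intron sites of that group, 227 belong to the readthrough model Gm20388, described below. The group's density without that model was not computed.

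The excess of first introns lay mostly within 5 kb of the gene's own transcript start. From 1 to 2 kb, first introns held 78.6 sites per Mb, and later introns 35.8, the latter from only 17 sites. From 2 to 5 kb the densities were 37.1 and 20.6 per Mb, a ratio of 1.81. From 5 to 50 kb the ratios lay between 1.07 and 1.15. From 50 to 100 kb the densities were 28.0 and 30.2 per Mb, an order that neither library alone showed (ratios of 1.01 and 1.02). From 100 to 200 kb first introns were the sparser, with 22.3 against 28.6 per Mb. Beyond 200 kb, where 89 genes had first-intron sequence, the order was 28.2 against 22.8. At the later-intron density of each range, first introns would hold 4993 sites, and 5889 were counted, a ratio of 1.18. For all peaks of replicates 1 and 2 that ratio was 1.23 and 1.22. With ranges of intron length in place of distance it was 1.23 for the shared sites. Each library alone showed the excess within 5 kb, with ratios of 2.21 and 1.64 in replicate 1 and 2.57 and 1.84 in replicate 2 for the nearest 2 ranges, and the lower density of first introns from 100 to 200 kb, with ratios of 0.780 and 0.910.

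Intergenic sequence upstream of starts was also densest at 1 to 2 kb, though less dense there than first introns, in a comparison chosen after the first values were seen. It held 50.3 sites per Mb from 1 to 2 kb, between first and later introns, then 32.4 from 2 to 5 kb and 28.0 from 5 to 10 kb. Between 5 and 100 kb the upstream density lay within 1.49 sites per Mb of the first-intron density in every range. The FDR bases followed the same course: 4.04% of first-intron bases passed at 1 to 2 kb and 1.13% at 5 to 10 kb in replicate 1, and 4.77% and 1.41% in replicate 2.

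**Figure D1:**
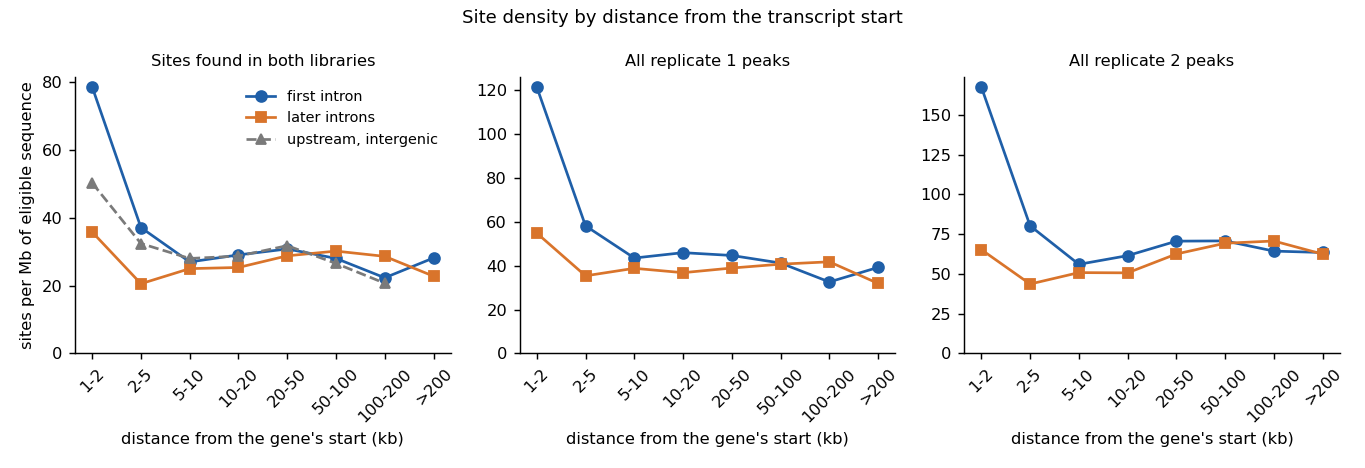
Sites per Mb of eligible sequence (y) by distance from the gene's own transcript start in kb (x), for sites in both libraries (left, with upstream intergenic sequence dashed) and for all peaks of each library (middle and right). First introns stand highest at 1 to 2 kb, 78.6 per Mb for the shared sites, and lie closer to the later introns from 5 to 100 kb, and the later-intron point at 1 to 2 kb rests on 17 sites.

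By rank, intron 1 was the densest at 31.5 sites per Mb, and introns 2, 3, 4, 5 and 6 or later held 27.2, 28.3, 26.3, 24.8 and 26.5. Genes with a single intron held 31.3 per Mb, close to first introns. Within first introns over 20 kb, divided into 5 equal segments, the segment nearest the start held 39.3 sites per Mb and the next 26.5, 28.2, 29.0 and 31.3. Later introns of that length were flat, between 24.8 and 25.8 per Mb in every segment.

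**Figure D2:**
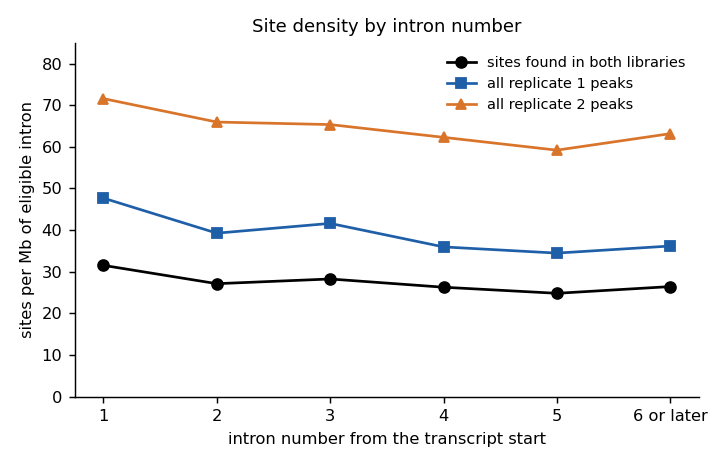
Sites per Mb of eligible intron (y) by intron number (x) for sites in both libraries and for all peaks of each library. Intron 1 is the highest point of every line, at 31.5 per Mb for the shared sites, and introns 2 to 6 or later lie between 24.8 and 28.3.

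Sites were concentrated in a minority of genes. Of 13443 genes with eligible first-intron sequence, 2850 (21.2%) held at least 1 site. A single site was found in 1572 genes, 2 to 4 sites in 1021 and 5 or more in 257, and these 257 held 32.9% of all gene and site pairs. Genes with a site had a median of 22.0 kb of eligible first intron, against 2.74 kb in genes without. Neighbouring sites of an intron lay a median of 7315 bp apart, and 27.2% had another within 2 kb. A share of 1.98% overlapped another listed site, since the deposited list holds overlapping peaks, and 75 sites lay in first introns of more than 1 gene and were counted for each.

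The gene with most sites was Gm20388, with 227, but its model is a readthrough transcript whose first intron spans 71 other protein-coding genes, so these sites are as well described by the genes inside it. Without it the pooled ratio was 1.16 and the within-gene rate ratio 1.03. Next came Ntm, which encodes neurotrimin, a cell adhesion protein of the IgLON family, with 33 sites in 546 kb. The nuclear receptor gene Rora held 26 in 537 kb, the synaptic adhesion gene Kirrel3 23 in 439 kb (0 where the transcript with the longest span was used), and Sorcs2, a sorting receptor for neurotrophin precursors, 20 in 162 kb. Arhgap26, a GTPase-activating protein, held 18, and its first intron spans 1 other protein-coding gene. The heparan sulfate sulfotransferase Hs6st3 held 17, the Notch coactivator Maml3 16, and the IgLON gene Lsamp and protein kinase C epsilon, Prkce, 15 each. Kcnip1, which binds Kv4 potassium channels, and the cAMP phosphodiesterase Pde4d held 13 each, and Cuedc1, the sulfotransferase Hs3st4 and the Rac exchange factor Prex1 12 each. Replicate 2 alone had far more peaks in the first introns of some of these genes: 60 in Kirrel3, 53 in Rora, 51 in Lsamp and 51 in Pde4d, against 26, 28, 19 and 18 in replicate 1. Pde4d held 7 sites with the longest-span transcript. Density varied widely among the shared sites: Prex1 held 202 sites per Mb and Cuedc1 178, while Lsamp held 19.0 and Pde4d 21.3.

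Of 1180 genes with 5 or more intronic sites, 509 held more first-intron sites than their length share and 671 fewer. None lay in the first intron in 317 of them, and all did in 37. Counts per gene are small integers, so a gene with a short first intron will often have none. The extremes were taken among 319 genes with at least 10 intronic sites and 10 kb of eligible sequence in each class, so their differences are a description of that choice.

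Furthest above its length share was Ntm, with 33 sites where 25.9 were expected. Its first and later introns have 546 and 402 kb of eligible sequence. Their peaks numbered 36 and 21 in replicate 1 alone and 49 and 30 in replicate 2, and no expected number was computed for either library alone. Prkce held 15 sites where 9.49 were expected, and its 15 sites ran in signal from 6.97 and 4.02 down to 0.745 and 0.508. Caln1, a neuronal calcium-binding protein, held 7 in 41.7 kb of first intron and 10 in 417 kb of later introns, 168 against 24.0 per Mb. Its first intron spans 1 other protein-coding gene. Its peaks in the first and later introns numbered 7 and 13 in replicate 1 alone and 8 and 25 in replicate 2. With the stricter lists Caln1 held 1. The receptor phosphatase gene Ptprg (12 sites, 6.65 expected), Sorcs2 (20, 14.7), the potassium channel gene Kcnn3 (7, 3.04), the reelin adaptor gene Dab1 (9, 5.15) and the AMP-activated kinase subunit gene Prkag2 (10, 6.57) followed.

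Furthest below was the chondroitin sulfotransferase gene Chst11, with 3 first-intron sites where 8.78 were expected and 14 sites in its only later intron. Others were Rgs6 (10 sites, 14.0 expected, and 0 sites with the longest-span transcript), a regulator of G protein signalling, Schip1 (11, 14.7), the unconventional myosin gene Myo1d (1, 4.47), Sh3rf3 (3, 6.42), the glycosyltransferase gene Galnt17 (6, 9.37) and the IgLON gene Negr1 (3, 6.26). IgLON genes thus stood at both ends, Ntm above and Negr1 below, with Lsamp at 15 where 15.4 were expected. In replicate 2 alone, Sh3rf3 had 20 peaks in the first intron and 16 in later introns, so its low shared count was not seen there.

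**Figure D3:**
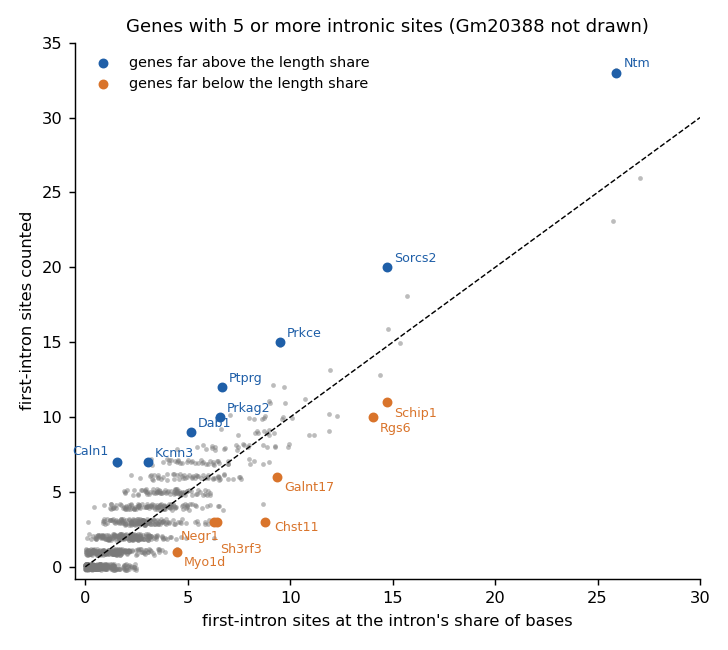
First-intron sites counted (y, jittered for grey points) against the number expected from the first intron's share of the gene's eligible intron bases (x), for genes with 5 or more intronic sites, Gm20388 not drawn. The dashed line marks equality, Ntm lies above it with 33 against 25.9, and Chst11 below it with 3 against 8.78.

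Markers of hippocampal cell types were read against the 21.2% of all genes with a site. Genes with a site had longer first introns, so densities stand beside the shares, many of them from few sites. The adhesion list was the fullest, with a site in 16 of 16 genes and 118 in all, among them Cadm1 and Opcml with 9 each. Its first introns were also the longest, with a median of 237 kb, and their density of 24.5 per Mb was below the 31.5 of all genes. The pan-neuronal and synaptic list held a site in 10 of 14 genes at 38.7 per Mb, with 7 each in the RNA-binding protein genes Celf4 and Rbfox1 and 6 in Rbfox3, which encodes the neuronal marker NeuN. Neural transcription factors held a site in 8 of 15 genes at 41.3 per Mb, 26 of the 47 sites in Rora.

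Among excitatory neuron genes 5 of 12 held a site, at 59.7 per Mb. The kainate receptor gene Grik4 held 7, and Camk2a, the alpha subunit of the synaptic kinase CaMKII, 4 in 13.3 kb. The Camk2a sites had signals of 3.85, 3.58, 2.52 and 1.15 in replicate 1 and 2.00, 2.59, 1.21 and 0.721 in replicate 2. Grik4 showed how the libraries can differ: replicate 1 alone had 34 first-intron peaks there and replicate 2 had 17. Rbfox3 likewise had 22 and 10, although replicate 2 had more peaks overall. Inhibitory neuron genes held a site in 5 of 9 at 20.8 per Mb, with 6 in the RNA-editing family gene Adarb2, and 4 each in the neuregulin receptor gene Erbb4 and in Reln, which encodes the secreted protein reelin. With the stricter lists, Reln and Rbfox3 held 0.

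In the glial and vessel lists the share of genes with a site ran from 27.3% (microglia) to 50% (oligodendrocyte lineage and vessel). The microglial share, and the 25% of the progenitor and ependymal lists, lay near the 21.2% of all genes. Oligodendrocyte lineage genes held a site in 6 of 12 at 30.4 per Mb, with 6 in Cspg4, the NG2 proteoglycan of oligodendrocyte precursors and pericytes. Its strongest site had a signal of 5.05 and 2.37, and the other 5 lay between 1.22 and 2.07 in replicate 1. Astrocyte genes held a site in 5 of 14 at 37.5 per Mb, with 3 in the glutamate transporter gene Slc1a2 and 2 in the bicarbonate transporter gene Slc4a4. Vessel genes held a site in 5 of 10 at 64.7 per Mb. Cspg4 is on this list too, and its 6 sites, already counted above, are among the 10 vessel sites. Microglial genes held a site in 3 of 11, or 7 sites in 0.0839 Mb, a density of 83.5 per Mb: 4 in Fli1, 2 in Csf1r, the receptor that microglia need to survive, and 1 in Sall1. The Csf1r sites lay in 2.74 kb of eligible sequence, with signals of 2.52 and 0.805 in replicate 1 and 0.986 and 0.513 in replicate 2. Progenitor genes held a site in 2 of 8, with 3 in Igfbpl1 and 1 in Tubb3, and these 4 sites in 0.0351 Mb gave 114 per Mb. Ependymal and choroid plexus genes held a site in 2 of 8 at 26.5 per Mb, with 4 in Clic6 and 2 in Aqp1. Immediate early genes held 1 site in 8 genes, in Egr1, in 0.0499 Mb.

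The contrast lists of liver, striated muscle, blood, epithelial and germline genes held none. Leaving out genes shared with a brain list, that was 0 sites in 33 genes, against 277 sites in 67 of 136 genes of the brain lists together. The median eligible first intron was 2.055 kb in the contrast genes, 12.6 kb in the brain lists and 4.10 kb in all genes, so the shares of genes with a site are not on equal lengths. The brain lists held 30.3 sites per Mb of eligible first intron, close to the 31.5 of all genes. The contrast genes had only 0.230 Mb of eligible first intron, so a count of 0 there rests on little sequence, and the difference was not tested. Each library alone did have peaks there, 6 in replicate 1 and 7 in replicate 2, or 26.1 and 30.4 per Mb against 42.8 and 74.3 per Mb for the brain lists, but none was shared. Their later introns held 29 sites in 1.49 Mb, or 19.5 per Mb, against 26.0 for the brain lists.

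Signal differed widely between sites and ranked them alike in both libraries. The median was 0.980 in replicate 1 and 0.727 in replicate 2, with quartiles of 0.638 and 1.62, and 0.490 and 1.15. The scaling of the deposited signal is not stated, so a ratio between the libraries has no meaning by itself, and such ratios are compared only between classes of sites. Across the 6173 sites the correlation was 0.764 (Pearson, log2) and 0.726 (Spearman), given with no p since sites share libraries and sequence. The strongest was in Il31ra, a subunit of the interleukin-31 receptor, at 63.0 and 21.3, 2421 bp from the nearest start. Next were Mxi1, which encodes a partner of MAX that opposes Myc, at 18.4 and 7.80, and the kinase gene Nuak1 at 18.2 and 8.60. Others of the top 10 lay in Gm20388, in the MAX partner gene Mnt (15.6 and 6.16), Zfp516 (16.0 and 5.90), Nr1d1, which encodes the circadian repressor REV-ERB alpha (14.8 and 6.73), the transcription factor gene Creb3l1 (12.8 and 5.61) and the chitinase gene Chit1 (12.4 and 4.76). The Il31ra value stood apart in both libraries.

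**Figure D4:**
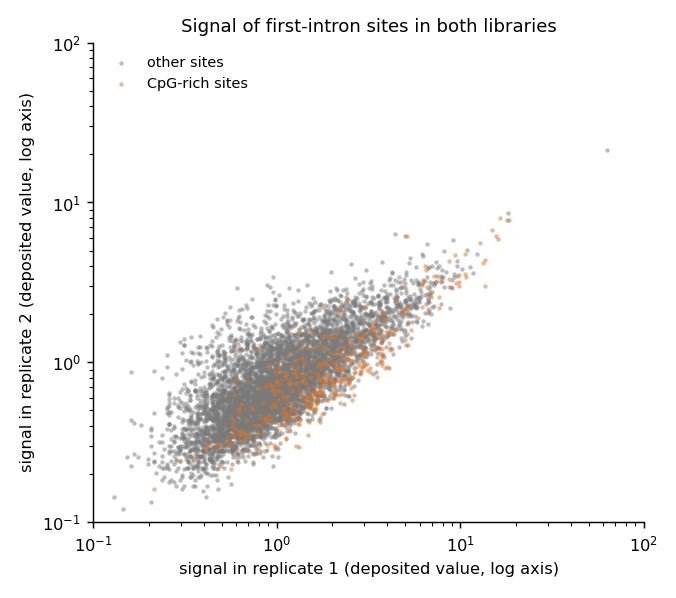
Deposited signal of each first-intron site in replicate 2 (y, log axis) against replicate 1 (x, log axis), with CpG-rich sites in orange. The Il31ra site stands alone at 63.0 and 21.3, and the CpG-rich sites lie mostly below the other sites at the same replicate 1 signal.

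Compared with 15086 shared sites in later introns only, first-intron sites were alike in most features. The median width was 200 against 183 bp, and the GC content of the central 200 bp 53.5% against 52.5%. A footprint, a short protected stretch within open DNA, was deposited in both libraries for 77.3% and 79.0%. Both stricter lists also held 49.7% and 52.3%, beside 56.1% of intergenic sites and 81.3% of peaks within 500 bp of a start. Midpoints lay in soft-masked repeats in 7.34% and 7.19%, while 33.9% of all eligible bases were masked. Reproducibility differed by library: 66.1% of replicate 1 first-intron peaks were overlapped in replicate 2, against 71.5% of later-intron and 71.2% of all autosomal peaks. For replicate 2 peaks the shares were 44.7% and 42.4%, both below the 49.7% of all its autosomal peaks.

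CpG-rich sites, with at least 50% GC and a CpG observed over expected of at least 0.6, were more frequent in first introns, at 384 sites or 6.22%, than in later introns, at 2.93%. Intergenic sites had 6.02%, and peaks within 500 bp of a start 67.8%. Their share was 15.4% of first-intron sites at 1 to 2 kb from a start and 1.40% beyond 100 kb. CpG-rich sites had a median signal of 1.71 and 0.799, with a replicate 1 to replicate 2 ratio of 2.25, and the other 5789 sites 0.942 and 0.721, with a ratio of 1.41. The promoter peaks had a ratio of 2.33. The signal ratio between the libraries was thus larger at CpG-rich sites, and the cause was not tested.

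The 1 kb limit did not fall at a step in signal. The 188 sites past the limit by up to 100 bp had medians of 1.10 and 0.655, and the 204 peaks at 900 to 1000 bp, which the rule left out, 1.10 and 0.617.

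Around the sites, the bases with a raised cut rate reached a share of 98.3% within 20 bp of the midpoint in replicate 1 and 95.2% in replicate 2, values that the peak calls fix. Farther out the surroundings differed. Near 1000 bp from the midpoint 9.27% of bases passed in replicate 1 and 8.63% in replicate 2, against 3.44% and 4.26% around later-intron sites and 4.47% and 5.50% around intergenic sites. A window of that size can reach a promoter in each of these classes, since all begin 1 kb from a start. The median distance to the nearest start was 7744 bp for first-intron sites, 13284.5 bp for later-intron sites and 17737.5 bp for intergenic sites. The cause of the difference was not tested.

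**Figure D5:**
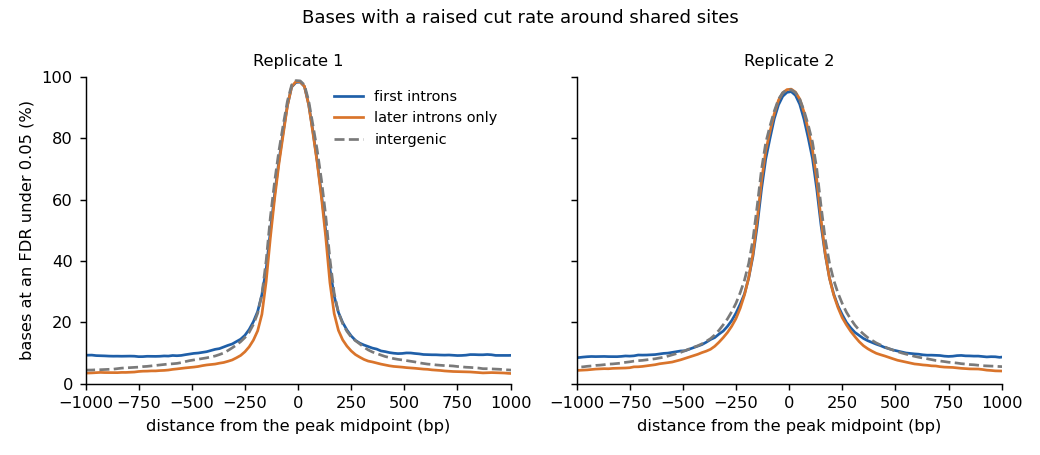
Share of bases with a cut rate at an FDR under 0.05 (y, percent) by distance from the peak midpoint (x, bp) around shared sites in first introns, in later introns only and in intergenic sequence. The central peaks are similar in height and width, and near 1000 bp the first-intron line stays highest, at 9.27% in replicate 1 and 8.63% in replicate 2.

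Sequence content was searched with 22 consensus motifs in the central 200 bp of each site and in windows of that length 1 kb to either side. Against the flanks, the most enriched were NFI, in 254 sites (4.11% against 0.470%), RFX, searched as GTTNCCNNGGNAAC, in 28 (0.454% against 0.0729%), and CTCF, in 511 (8.28% against 1.60%). CREB letters were in 27 sites (0.437% against 0.121%). The E-boxes were the commonest, CAGATG in 1635 sites (26.5% against 15.6%) and CAGCTG in 1514 (24.5% against 10.2%). NFI proteins act in neurons and astrocytes, RFX proteins in ciliated and neural cells, and the E-boxes are bound by factors such as NeuroD and TCF4. Less frequent in sites than in flanks were the SOX letters ACAATGG (2.25% against 2.85%), the NR4A letters AAAGGTCA (0.551% against 0.956%) and the ROR letters (1.23% against 1.91%). So were the RUNX letters (3.61% against 4.62%) and, by less, the LIM homeodomain, POU octamer and FOX letters. Median GC was 53.5% in sites and 47.25% in flanks. How far base composition enters these enrichments and depletions was not tested.

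CTCF letters were less frequent in first-intron sites than in later-intron and intergenic sites, and more frequent than in promoter peaks. They were in 8.28% (95% exact interval 7.60 to 8.99) of first-intron sites, 12.9% (12.4 to 13.5) of later-intron sites, 12.9% of intergenic sites and 4.09% of promoter peaks. The difference was also present at matched distances from the nearest start, except the farthest: at 1 to 2 kb the shares were 6.49% and 16.4%, at 10 to 20 kb 7.76% and 14.2%, and beyond 50 kb 7.18% and 7.58%. First-intron sites with the CTCF letters had a median signal of 1.59 and 1.01, against 0.946 and 0.707 without, and 90.4% held a footprint in both libraries, against 76.2%. The Nuak1 and Ntm sites shown earlier are of this kind. NFI letters were in 4.11% (3.63 to 4.64) of first-intron and 3.40% (3.12 to 3.70) of later-intron sites. These intervals overlap, which does not show that the shares are alike, and the difference was not tested. CAGATG became more frequent with distance from a start in both classes, from 18.9% at 1 to 2 kb to 32.0% beyond 50 kb in first introns and from 24.6% to 33.8% in later introns.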

How the data were processed

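Peaks, footprints and cut-rate runs came from the authors' deposited files, made per library on mm10 per the file listings; the tools, read depth and handling of CAST/EiJ reads are not stated there. Of the 2 deposited peak lists per library the longer was used. The authors' signal value per peak has an unstated scaling. It served to rank peaks within a library, and its ratio between libraries was compared only between classes of sites. The deposited FDR (q-value) files list runs under 0.05. Deposited footprints were used for presence only. GRCm38.p6, the assembly that mm10 names, and GENCODE M21 gave sequence and introns. Ratio intervals use exact binomial counts at 95%. Counting and ratios were tested on simulated data. Python 3.11.15, numpy 2.4.6, pandas 2.3.3 and scipy 1.17.1 were used.

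The members, the 17 gene lists and the comparisons were chosen with earlier results of these data known. Named genes are the 15 with most sites, those of the 10 strongest sites (by the lower percentile of the 2 libraries), the 8 furthest above and 8 below their length share, and up to 3 per list; Opcml was named after its count was seen. Printed sequences are part of those the rule allows. X-linked list genes were not analysed here. Some items that these rules choose are not reported here.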

Additional observations from a re-analysis of the deposited data

How the results depend on the processing

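The pooled excess of first introns depended on the sequence next to starts, and the within-gene values lay on either side of 1. The number of sites was 3050 with the stricter lists and 3773 over 5 kb from every start, and 9335 to 13941 when either replicate was left out, which drops the overlap rule. The share of intronic sites in first introns was 27.8% with full intron lengths, which bring in more genes. The density ratio was 1.07 over 2 kb and 1.03 over 5 kb from every start, and 1.12 or more under the other alternatives. The within-gene observed over expected value was 0.961 with the stricter lists, 0.994 at an overlap of 50% of both peaks, 1.00 with full lengths, 1.02 in genes that overlap no other, 1.01 with equal numbers of peaks, 0.994 without CpG-rich sites, 0.958 over 2 kb, 0.944 over 5 kb, and 1.02 to 1.03 with either replicate left out. The within-gene rate ratio was 0.922, 0.987, 1.00, 1.04, 1.01, 0.988, 0.915, 0.889 and 1.05 to 1.07 in the same order. The cause of these moves was not tested. Of 65 named genes, the site count moved by more than 1.5 times in 44 with the stricter lists, 39 without replicate 1, 20 over 5 kb from starts, 17 at 50% overlap, 12 without replicate 2, 8 over 2 kb, 6 with equal numbers, 5 with the longest-span transcript and 5 without CpG-rich sites. The Mantel-Haenszel ratio and the removal of Gm20388 were chosen after seeing the data. No paired analysis was possible because both libraries belong to 1 group. Read depth is unknown, so sites missed in one library for lack of reads cannot be told apart from closed ones.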
